A study of Caenorhabditis elegans with 4 samples.

Results

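The small RNA libraries of both control strains were compared, that of ctrl (PE255) worms grown at 20 °C with that of WT (N2) worms grown at 25 °C. These are 2 of the 4 libraries of the study, with 1 library for each condition. PE255 carries *feIs5*, a transgene integrated on chromosome X that drives a luciferase::GFP fusion from the *sur-5* promoter together with the dominant roller marker *rol-6(su1006)*, whereas N2 Bristol is the unmodified wild isolate. All were pools of whole hermaphrodites at day 0 of adulthood, fed OP50-1 bacteria. The other libraries were ALG-1/OE (CT20), which carries *zaIs5*, *alg-1p::GFP::alg-1* with the same roller marker, at 20 °C, and *glp-1(e2144)*, which lacks a germline at 25 °C. They are given only as side values. Every mature miRNA with reads in both ctrl and WT was measured, which held for 198 of the 434 mature names. Strain, transgene, roller marker and temperature differ together between ctrl and WT, and their parts cannot be told apart. With 1 library a side no difference has a replicate check, so no test of a condition was made and all intervals are 95% intervals of counting error only.

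A miRNA is cut as a duplex from the stem of a hairpin. Usually 1 arm of the duplex, 5p or 3p, is kept by an Argonaute such as ALG-1, and the other is degraded. The bases near its 5′ end, the seed, select target mRNAs, so miRNAs with the same seed form a family. Families were taken here by the names of their hairpins, not from sequences, and their sums hold both arms, although the seed is usually that of 1 arm only. In the worm, let-7 and lin-4 time steps of development up to the adult. The family of mir-35 to mir-42, here the mir-35 family, is made in the germline and early embryo.

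Mature miRNA reads numbered 175048 in ctrl and 211140 in WT, and at least 10 reads were counted for 134 miRNAs in ctrl and for 147 in WT. Levels are given as reads per 1e+06 mature miRNA reads (RPM), and the fold change is the log2 ratio of these levels, ctrl over WT. Reads were found in ctrl only for 17 miRNAs, with at most 3 reads each, and in WT only for 33, with at most 4. A count of 0 allows up to 17.1 RPM in ctrl and 14.2 RPM in WT (3 reads). Thus no miRNA was well read in 1 library and absent from the other.

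The same miRNAs dominated both libraries. The 10 most abundant took 68.2% of the reads in ctrl and 65.4% in WT, and 8 of these were shared, as were 19 of the 20 most abundant. The largest was miR-82-3p, a member of the bantam family, with 35943 reads in ctrl (20.5% of the library) against 33404 in WT (15.8%). Its log2 fold change was 0.38 (0.35 to 0.40). It was followed in both by miR-57-5p, known for posterior cell fate in the embryo, with 16010 reads in ctrl (9.15%) against 28498 in WT (13.5%) and a log2 fold change of -0.56 (-0.59 to -0.53). For miR-82-3p the ctrl library stood above the others, with 205332 RPM in ctrl and 158208 RPM in WT, while ALG-1/OE had 158667 RPM and *glp-1(e2144)* 158871 RPM. miR-80-3p, another member of the bantam family, had 9104 reads in ctrl and 10976 in WT, or 52009 RPM in ctrl and 51985 RPM in WT, and its log2 fold change of 0.00067 (-0.040 to 0.041) changed sign with the scaling.

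**Figure D1:**
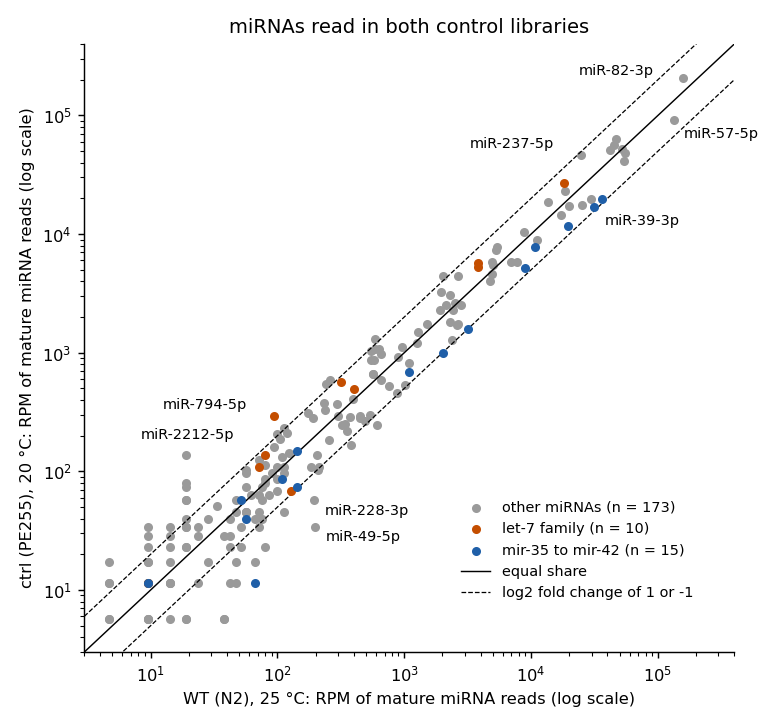
Level of each of the 198 miRNAs read in both libraries, with RPM in ctrl on the vertical and RPM in WT on the horizontal axis, both on log scales, where 1 point is 1 miRNA and the dashed lines mark log2 fold changes of 1 and -1. Most points lie within the dashed lines, the mir-35 family (blue) lies mostly under the line of equal share, and the let-7 family (orange) mostly over it.

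Between the libraries, 15.0% of the reads would have to be moved to another miRNA to turn the composition of WT into that of ctrl. The gains were led by miR-82-3p with 4.71 percentage points, miR-237-5p with 2.13, miR-228-5p with 1.63 and miR-70-3p with 1.16, which together make 9.64 points. On the side of the losses, miR-57-5p and the mir-35 family together changed by -9.18 points. Thus a few abundant miRNAs and 1 family account for most of the shift in composition.

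**Figure D2:**
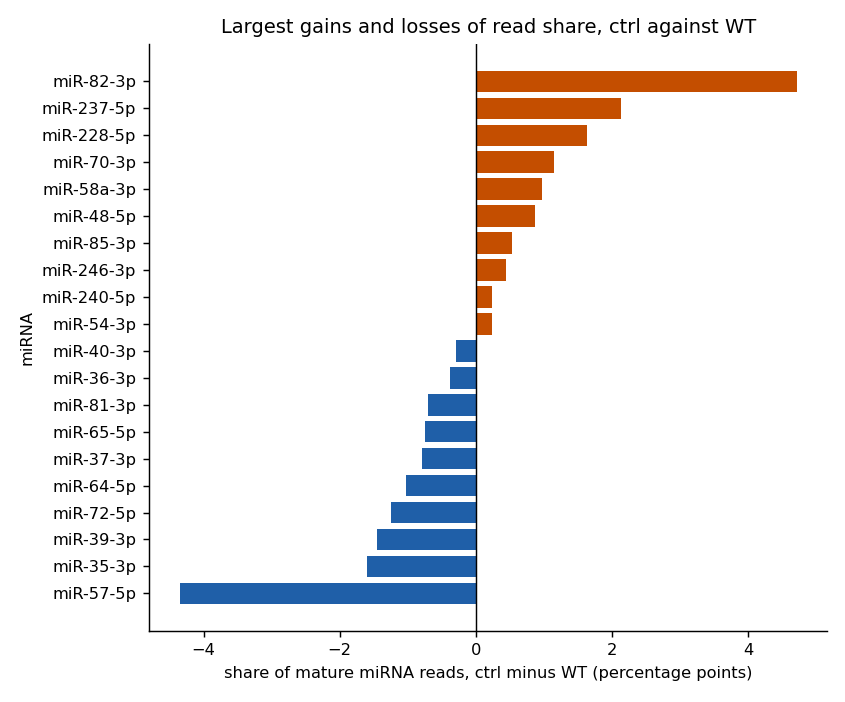
Share of mature miRNA reads in ctrl minus that in WT, in percentage points, for the 10 largest gains (orange) and the 10 largest losses (blue), with 1 bar for each miRNA. miR-82-3p (4.71 points) and miR-57-5p (-4.35 points) stand far from all others.

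Past the study's cut-off of 1 on the log2 scale, 21 of the 198 miRNAs (10.6%) lay above it in ctrl and 22 (11.1%) lay below it, and the median of all was 0.037. The interval also cleared 0 for 10 of the 21 (5.05% of all 198) and for 11 of the 22 (5.56%). Both miR-356a and miR-356b-3p are among the 21. These overlap on opposite strands and hold equal counts, 10 in ctrl and 4 in WT, so the same reads may be counted for both. Of the 43 past the cut-off, 30 had fewer than 50 reads in the pair of libraries, although such miRNAs make up 96 of the 198. Of the 102 miRNAs with 50 reads or more over both libraries, here the well read miRNAs, 7 (6.86%) lay above and 6 (5.88%) below, and 59 (57.8%) differed by less than 1.5-fold. The whole interval lay above 0 for 38 of them (37.3%) and below 0 for 37 (36.3%), and 53 (52%) had a ratio above 0. The share past the cut-off decreased with the number of reads, being 41.2% with 2 to 9 reads in the pair and 6.00% with at least 500. Only 1 miRNA in each direction had an interval wholly past the cut-off, miR-2212-5p with 24 reads in ctrl against 4 in WT (log2 fold change 2.86, 1.31 to 4.84) and miR-49-5p with 6 against 42 (-2.54, -4.06 to -1.30). Both have fewer than 50 reads in the pair and were singled out after their values were seen.

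The highest log2 fold change among the well read miRNAs was that of miR-794-5p, of the let-7 family. It had 51 reads in ctrl (291 RPM) against 20 in WT (94.7 RPM), with a log2 fold change of 1.62 (0.85 to 2.45). The other libraries had 286 RPM in ALG-1/OE and 169 RPM in *glp-1(e2144)*, so WT was the lowest of the 4. Its hairpin lies on chromosome I, from 12595690 to 12595773 on the plus strand, outside protein-coding genes, and shares a cluster with mir-795. In that cluster, miR-795-5p had 99 reads in ctrl against 67 in WT, a log2 fold change of 0.83 (0.37 to 1.30).

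Both arms of mir-240 lay above the cut-off. This hairpin, on chromosome X from 7882622 to 7882718, is neighbour to mir-786, with which it is known to act on the defecation rhythm. miR-240-5p had 775 reads in ctrl (4427 RPM) against 427 in WT (2022 RPM), with a log2 fold change of 1.13 (0.96 to 1.30). miR-240-3p had 103 against 55, with 1.18 (0.69 to 1.68). The 5p arm had 3812 RPM in ALG-1/OE and 3241 RPM in *glp-1(e2144)*, so that WT was again the lowest. The reads of miR-786-3p were few, 8 in ctrl and 12 in WT, and equal in number to those of miR-8203-5p on the opposite strand, so the strand is uncertain there.

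Others above the cut-off were miR-254-3p, miR-77-5p, miR-1830-3p and miR-1022-5p. The hairpin of miR-254-3p lies on chromosome X from 11333531 to 11333630, in an intron of *gcy-9*, a guanylyl cyclase gene of carbon dioxide sensing neurons. It had 96 reads in ctrl (548 RPM) and 51 in WT (242 RPM), a log2 fold change of 1.18 (0.68 to 1.70), whereas *glp-1(e2144)* had 214 RPM and ALG-1/OE lay between ctrl and WT. miR-77-5p had 228 reads in ctrl against 124 in WT and a log2 fold change of 1.15 (0.83 to 1.48). miR-1830-3p and miR-1022-5p rest on 36 and 41 reads in ctrl against 21 and 24 in WT, and their intervals start at 0.23 and 0.28. With a total that leaves out mir-35 to mir-42 both came under the cut-off, at 0.97 each. For these 4, the intervals include values on either side of the cut-off. Next in order and under the cut-off came miR-785-3p (0.90), miR-237-5p (0.89), miR-230-5p (0.89), miR-359 (0.86) and miR-242 (0.84). miR-785-3p and miR-359 are neighbours within a cluster on chromosome X from 3004291 to 3004761, and both were higher in ctrl, with 180 reads against 116 and with 33 against 22.

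The lowest log2 fold change among the well read miRNAs was that of miR-228-3p, the minor arm of a hairpin known from glia. It had 10 reads in ctrl (57.1 RPM) against 41 in WT (194 RPM), with a log2 fold change of -1.77 (-2.93 to -0.74). ALG-1/OE had 122 RPM and *glp-1(e2144)* 114 RPM, so that ctrl was the lowest and WT the highest of the 4. miR-1829c-5p, from an intron of *piki-1* on chromosome X, had 43 reads in ctrl (246 RPM) against 128 in WT (606 RPM) and a log2 fold change of -1.30 (-1.84 to -0.79). Here WT stood apart, since ALG-1/OE had 302 RPM and *glp-1(e2144)* 179 RPM. The similarly named miR-1829b-5p had 160 reads in ctrl and 187 in WT, with 0.045 (-0.27 to 0.36). miR-52-3p had 29 reads in ctrl against 81 in WT and a log2 fold change of -1.21 (-1.88 to -0.58). The others below the cut-off were miR-38-3p and miR-39-5p of the mir-35 family, and miR-45-5p with 18 reads in ctrl against 44 in WT. These 3 each had a log2 fold change of -1.02, and none stayed past the cut-off with TMM factors, where miR-38-3p had -0.96 and the others -0.95, or with a total without miR-82-3p, where all 3 had -0.94.

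**Figure D3:**
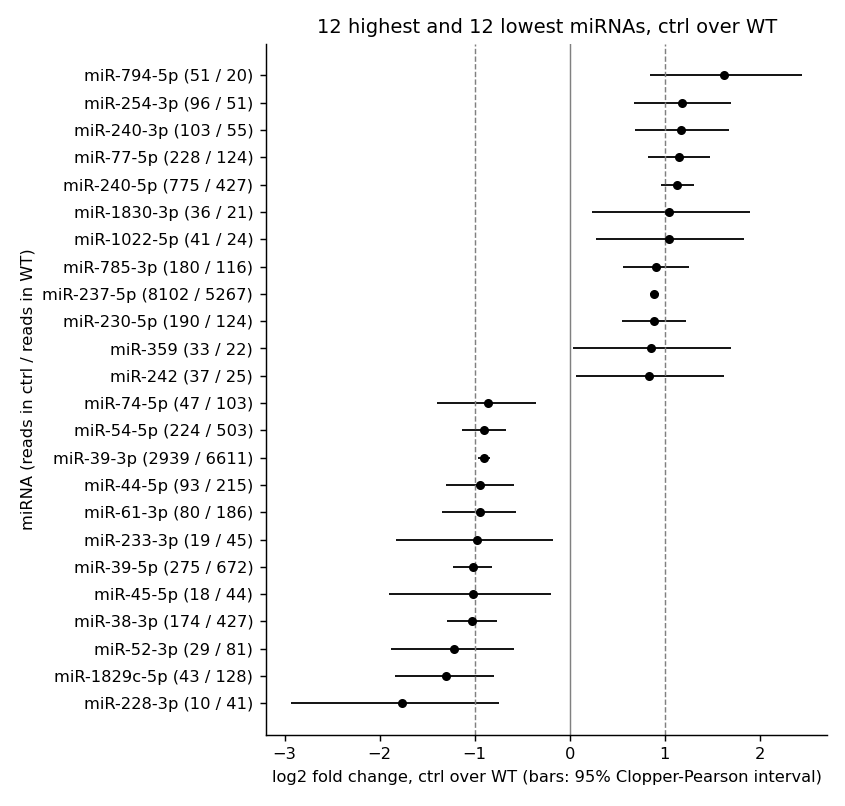
Log2 fold change, ctrl over WT, of the 12 highest and 12 lowest miRNAs with 50 reads or more over both libraries, with points for the ratio of levels and bars for the 95% Clopper-Pearson interval. Reads in ctrl and in WT stand behind each name, and 7 miRNAs lie above 1 and 6 below -1.

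The mir-35 family was lower in ctrl. It took 11404 reads in ctrl, 6.51% of the library (95% Clopper-Pearson interval 6.40% to 6.63%), against 23954 reads in WT, 11.3% (11.2% to 11.5%), which is a log2 fold change of -0.80 (-0.83 to -0.77) for the sum. The shares were 8.78% in ALG-1/OE and 0.0756% in *glp-1(e2144)*, the germline-less library. Fewer germ cells or embryos and less miRNA per cell cannot be told apart in whole worms. Of its 15 measured strands 12 had a log2 fold change below 0 and 3 lay below the cut-off, with a median of -0.75. Of all 198 miRNAs, 51% lay above 0 and 11.1% below the cut-off, with a median of 0.037.

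The abundant 3p strands of the family were all lower in ctrl. miR-35-3p had 3486 reads in ctrl against 7580 in WT, a log2 fold change of -0.85 (-0.91 to -0.79). miR-39-3p had 2939 against 6611, with -0.90 (-0.96 to -0.84), and miR-37-3p had 2052 against 4151, with -0.75 (-0.82 to -0.67). miR-40-3p, with 1373 reads in ctrl against 2261 in WT, lay apart at -0.45 (-0.55 to -0.35), as its interval does not reach those of the other abundant strands. These come from a single cluster on chromosome II, from 11537608 to 11538404, in an intron of *Y62F5A.9* on the opposite strand. miR-42-5p, whose hairpin lies in another cluster of this chromosome, had 26 reads in ctrl and 30 in WT, with 0.064 (-0.75 to 0.87). The other arm, miR-42-3p, had 2 reads in ctrl against 14 in WT, with -2.54 (-5.72 to -0.41), and is the third strand of the family below the cut-off, beside miR-38-3p and miR-39-5p.

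Without the family, the shift of the total of miRNA reads would lower every other log2 fold change by 0.077. Thus the lower share of this family moves the other miRNAs only slightly. Leaving its members out of both counts and totals gave 18 miRNAs above and 22 below the cut-off of the 183 that remained, a choice made after the values were seen.

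Of 7 other well read miRNAs that were low in the germline-less library, 6 had a log2 fold change below 0 in ctrl over WT. Not all of these had an interval that cleared 0. The choice was made among the well read miRNAs, whose filter of 50 reads uses ctrl and WT. A miRNA can pass that filter mainly through its WT reads, so the choice is not free of these libraries. Among them, miRNAs with a log2 fold change above 2 in ALG-1/OE over *glp-1(e2144)* were taken after the values were seen. That pair shares no library with the comparison of ctrl with WT. Of the 102 well read miRNAs 16 lay above 2 in that pair, 9 of them in the mir-35 family. The 16 had a median log2 fold change of -0.82 in ctrl over WT and 14 lay below 0, whereas the other 86 had a median of 0.23 and 35 lay below 0. The 7 outside the family were miR-52-3p, miR-61-3p, miR-44-5p, miR-74-5p, miR-4813-5p, miR-250-3p and miR-1829b-5p, with a median of -0.86. miR-61-3p, known from vulval cell fate, had 80 reads in ctrl (457 RPM) against 186 in WT (881 RPM), a log2 fold change of -0.95 (-1.34 to -0.56), with 844 RPM in ALG-1/OE and 39.1 RPM in *glp-1(e2144)*. miR-44-5p had 93 against 215, with -0.94 (-1.31 to -0.58), and miR-74-5p had 47 against 103, with -0.86 (-1.39 to -0.35). miR-4813-5p had 19 against 39, with -0.77 and an interval that includes 0 (-1.64 to 0.059). For miR-250-3p, the neighbour of miR-61-3p in a cluster on chromosome V, there were 51 reads in ctrl and 63 in WT. Its log2 fold change of -0.034 had an interval that includes 0 (-0.60 to 0.52) and is within the range by which the scalings move a value. Since *glp-1(e2144)* and ALG-1/OE also differ in temperature and transgene, the part of the germline in these values was not tested.

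The miRNAs of developmental timing were higher in ctrl. The let-7 family summed to 6921 reads in ctrl, 3.95% of the library (3.86% to 4.05%), against 5689 in WT, 2.69% (2.63% to 2.76%), a log2 fold change of 0.55 (0.50 to 0.60). Of its 10 measured strands 9 lay above 0, against 51% of all miRNAs, and the median was 0.57 against 0.037 for all. The whole interval lay above 0 for 5 of the 10, against 20.7% of all 198. Among the 9 is let-7-3p, with 2 reads in each library, which lies above 0 through the scaling only. Above the cut-off lay 1 of the 10, which is no more than the 10.6% of all miRNAs. miR-48-5p, its most abundant member, had 4705 reads in ctrl against 3844 in WT, a log2 fold change of 0.56 (0.50 to 0.62). let-7-5p had 927 against 807, with 0.47 (0.33 to 0.61), and miR-84-5p had 995 against 802, with 0.58 (0.45 to 0.72). The interval of miR-793, 87 reads in ctrl against 85 in WT, included 0. The share of the family was 3.71% in ALG-1/OE and 3.96% in *glp-1(e2144)*, so here WT was the lowest of the 4 libraries. In *glp-1(e2144)* the mir-35 family took 0.0756% of the reads against 11.3% in WT. The other miRNAs together thus took a larger share there, though not each family did. The cause of the difference in the let-7 family was not tested.

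The lin-4 family consists in these libraries almost wholly of miR-237-5p, a relative of lin-4 that is also under temporal control. It had 8102 reads in ctrl (46284 RPM) against 5267 in WT (24946 RPM), a log2 fold change of 0.89 (0.84 to 0.94), with 43855 RPM in ALG-1/OE and 34734 RPM in *glp-1(e2144)*. Both libraries grown at 20 °C thus lay above both grown at 25 °C. The former also carry a transgene with the roller marker, so temperature and transgene cannot be told apart here. Its hairpin lies on chromosome X from 8154084 to 8154182, outside protein-coding genes. lin-4-5p itself had only 2 reads in ctrl and 2 in WT, and miR-241-5p of the let-7 family had none in either, too few for a fold change. Both were nearly absent from all 4 libraries, since lin-4-5p had 1 read in ALG-1/OE and 12 in *glp-1(e2144)*, and miR-241-5p had none there. The cause was not tested, and the sums of the lin-4 and let-7 families therefore stand for their other members.

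**Figure D4:**
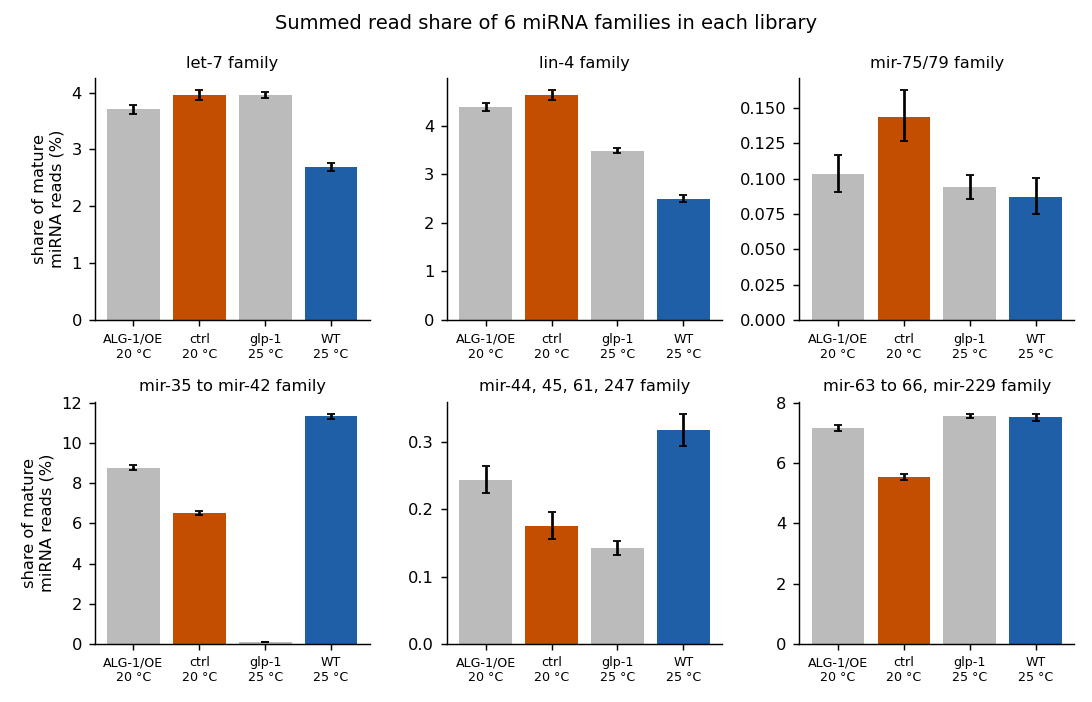
Summed share of mature miRNA reads (%) of both arms of 6 families, taken by hairpin name, in ALG-1/OE, ctrl, *glp-1(e2144)* and WT, each axis starting at 0, with bars for the share and error bars for the 95% Clopper-Pearson interval. ctrl (orange) lies above WT (blue) for the let-7 (3.95% and 2.69%), lin-4 and mir-75/79 families and below it for the other 3.

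Further families differed by less than the cut-off in either direction. The family of mir-44, mir-45, mir-61 and mir-247 summed to 307 reads in ctrl against 670 in WT, a log2 fold change of -0.86 (-1.06 to -0.66), and all 6 measured strands lay below 0, of which miR-61-5p, at -0.0097, is within the range by which the scalings move a value. miR-44-3p and miR-45-3p are known to have the same mature sequence, so their reads cannot be assigned to 1 of them. Of the 307 reads in ctrl, miR-44-5p, miR-45-5p and miR-61-5p hold 93, 18 and 14. The mir-63 to mir-66 and mir-229 family summed to 9709 reads in ctrl and 15894 in WT, with -0.44 (-0.48 to -0.40). Its members in 1 cluster on chromosome III did not share a direction, as miR-64-5p had -0.61 (-0.67 to -0.55), miR-65-5p -0.51 (-0.57 to -0.44) and miR-66-5p 0.24 (0.11 to 0.36). The mir-72/73/74 family, relatives of miR-31 of other animals, had 8007 reads in ctrl against 12505 in WT, with -0.37 (-0.41 to -0.33). The mir-75/79 family was higher in ctrl, with 0.144% of the reads against 0.0871% in WT and 0.72 (0.44 to 1.01). The bantam family as a whole, 36.2% of the reads in ctrl and 31.0% in WT, had a log2 fold change of 0.22 (0.21 to 0.24). For the family of mir-2, mir-43, mir-250 and mir-797 the log2 fold change of 0.050 (-0.19 to 0.29) changed sign with the scaling.

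miRNAs with known roles in lifespan and heat stress showed no common direction. Summed, the 18 strands of mir-71, mir-34, mir-83, mir-80, mir-229, mir-238, mir-239a, mir-239b and mir-246 took 11.3% of the reads in ctrl (11.2% to 11.5%) and 11.0% in WT (10.9% to 11.1%). Of the 17 measured 9 lay above 0 and 8 below, with a median of 0.00067. mir-71 is required for the long life of germline-less worms. Its abundant arm, miR-71-5p, had 1809 reads in ctrl and 1846 in WT, with a log2 fold change of 0.24 (0.15 to 0.34), and its minor arm, miR-71-3p, had 153 in ctrl and 116 in WT, with 0.67 (0.31 to 1.03). miR-246-3p had 4002 reads in ctrl and 3894 in WT, with 0.31 (0.25 to 0.37). Lower in ctrl were miR-238-3p with 1017 reads against 1641 and -0.42 (-0.53 to -0.31), and miR-229-5p with 1572 against 2335 and -0.30 (-0.39 to -0.21). miR-34-5p, miR-83-3p, miR-239a-5p and miR-239b-5p had intervals that include 0. Only miR-239a-3p lay past the cut-off, on 4 reads in ctrl and 17 in WT.

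Of the markers of single tissues, those of muscle and neurons were thinly read, whereas miR-60-3p was well read. miR-60-3p of the intestine had 445 reads in ctrl and 596 in WT, with a log2 fold change of -0.15 (-0.33 to 0.029). In muscle, miR-1-5p had 8 reads in ctrl and 12 in WT, and miR-1-3p had 1 read in ctrl and none in WT. The neuronal miR-124-3p and miR-234-3p had no reads in either library, and all neuronal markers summed to 17 reads in ctrl and 21 in WT. miR-1-3p and miR-124-3p were also at or near 0 in the other libraries, with 5 and 0 reads in ALG-1/OE and 2 and 0 in the deeper *glp-1(e2144)* library, and the cause was not tested. Muscle and neuronal content could therefore not be compared from these markers.

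The arms of a hairpin come from 1 transcript, and their ratio within a library does not depend on the scaling. It was compared for the 33 hairpins whose arms each had 10 reads or more in ctrl and in WT. At mir-5592, 1 of the 33, rows on opposite strands hold equal counts, so its difference is fixed at 0 and says nothing of the arms. At mir-44 and mir-45, also among the 33, the 3p reads cannot be assigned to 1 hairpin, so their arm ratios are uncertain. The less abundant arm had the higher log2 fold change in 19 of the 33 and the lower in 13. The median of the difference, less abundant minus more abundant, was 0.078. Nevertheless, the arms had opposite signs for 12 hairpins. Unlike the ratio of the arms, these signs depend on the scaling. At mir-56 and mir-63 the more abundant arm is within the range by which the scalings move a value. In several of the 12 an arm had an interval that includes 0, such as miR-238-5p and miR-48-3p, whereas at mir-228 both arms cleared 0. For 6 hairpins the intervals of the arm share in ctrl and in WT did not overlap.

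Among these, the largest difference was at mir-228. The 3p arm made up 0.0910% of its reads in ctrl (0.0437% to 0.167%) against 0.417% in WT (0.300% to 0.566%), since the 5p arm had a log2 fold change of 0.44 (0.40 to 0.48) while the 3p arm was lower. At mir-52 the 3p arm made up 2.21% in ctrl and 6.80% in WT, at mir-54 the 5p arm 14.1% in ctrl and 30.6% in WT, and at mir-48 the 3p arm 0.254% in ctrl and 0.697% in WT. In each of these 4 the minor arm was the lower one in ctrl. The opposite was seen at mir-77, where the 5p arm made up 19.1% in ctrl and 10.5% in WT, and at mir-80, where the 5p arm made up 7.79% in ctrl and 4.86% in WT. The arm shares at mir-54 were 21.9% in ALG-1/OE and 11.3% in *glp-1(e2144)*, between which ctrl lies. At mir-240 the shares of the 3p arm overlapped, with 11.7% in ctrl (9.68% to 14.0%) and 11.4% in WT (8.71% to 14.6%).

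**Figure D5:**
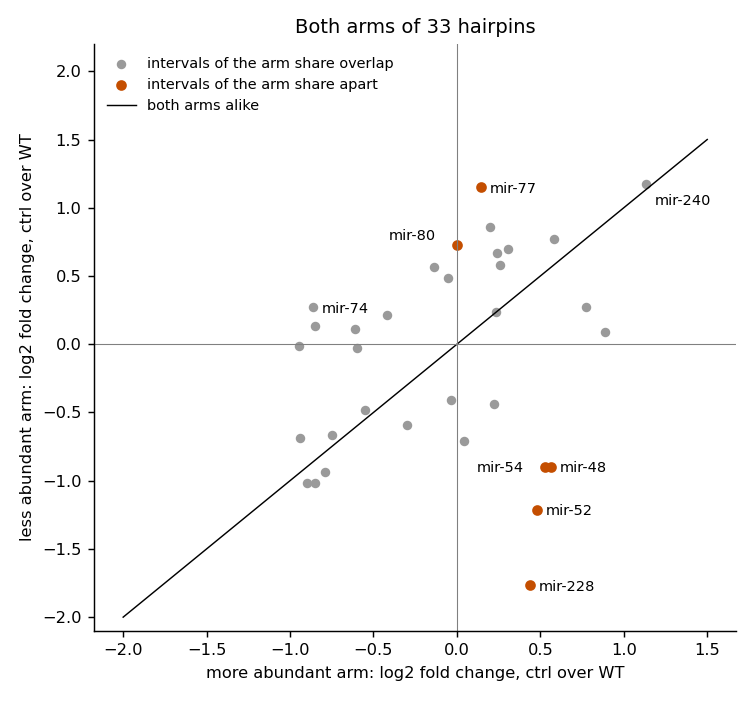
Log2 fold change, ctrl over WT, of the less abundant arm (vertical) against the more abundant arm (horizontal) for 33 hairpins whose arms each had 10 reads or more in ctrl and in WT, with 1 point for each hairpin. The 6 orange hairpins, whose arm shares have intervals that do not overlap, lie off the line where both arms are alike, and mir-240 lies close to it. Some grey hairpins with fewer reads, such as mir-74, lie farther from that line than mir-80 (orange).

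Since *feIs5* is on chromosome X, the miRNAs were also grouped by chromosome. Hairpins on X gave 35.04% of the reads in ctrl and 28.1% in WT, and those on chromosome II gave 23.4% in ctrl and 33.4% in WT. Without miR-82-3p and miR-237-5p, those on X had 9.88% in ctrl and 9.78% in WT. Without miR-57-5p and the mir-35 family, those on chromosome II had 7.71% in ctrl and 8.55% in WT. Thus a few abundant miRNAs carry both differences. Over the 69 measured miRNAs of X and over the 27 of chromosome IV the median log2 fold change was 0.27. That is the value of any miRNA with equal read counts in both libraries, so the match is a tie of counts. Over the well read miRNAs the median was 0.23 on X, 0.31 on chromosome IV and 0.34 on chromosome I, and negative on the others. A positive median was thus not particular to X. Of the 69 on X 9 lay above the cut-off and 6 below, where 10.6% and 11.1% of all 198 did. Over the 36 measured miRNAs of chromosome II the median was -0.53, with 2 above and 7 below, and over the 21 outside the mir-35 family it was -0.26.

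Neighbours within a genomic cluster did not always share a direction. In 11 clusters of hairpins no more than 10 kb apart on 1 strand, the range of log2 fold changes over the more abundant arms was between 0.014, for mir-2 and mir-71 on chromosome I, and 1.68, for mir-73, mir-74 and mir-75 on chromosome X. In the cluster on X miR-74-5p had -0.86, miR-73-3p -0.26 and miR-75-3p 0.82 (0.19 to 1.46). mir-51 and mir-53 on chromosome IV also pointed in opposite directions, with -0.60 (-0.81 to -0.40) for miR-51-5p and 0.58 (0.22 to 0.93) for miR-53-5p.

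The comparisons of the study were scaled in the same way and set beside that of the control libraries. For miRNAs with 50 reads or more over the libraries compared, the median of the absolute log2 fold change was 0.54 for ctrl over WT, 0.30 for ALG-1/OE over ctrl and 0.43 for *glp-1(e2144)* over WT. Without the mir-35 family these medians were 0.48 for ctrl over WT, 0.29 for ALG-1/OE over ctrl and 0.42 for *glp-1(e2144)* over WT. The cut-off was passed by 12.7% of the miRNAs for ctrl over WT, by 2.86% for ALG-1/OE over ctrl and by 25.0% for *glp-1(e2144)* over WT. Each of these comparisons shares a library with another, depth differs between them, and the differences between them were not tested. Over the 102 well read miRNAs, the log2 fold changes of ctrl over WT were set beside those of ALG-1/OE over *glp-1(e2144)*. That pair also sets 20 °C with a roller transgene against 25 °C without it, and shares no library with ctrl over WT. However, it further sets ALG-1 overexpression against a strain without a germline, so its signs do not isolate temperature or roller transgene. The sign was the same for 46 of the 102, and for 45 of 93 without the mir-35 family. Of the 7 above the cut-off in ctrl over WT, 6 were also higher in ALG-1/OE, against 55 of all 102, and of the 6 below it 5 were higher in ALG-1/OE.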

How the data were processed

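Pools of worms from 4 strains were sequenced by the authors, 1 small RNA library each. The labels name a SOLiD library kit, whereas the methods name the HiSeq2500 platform. Adapter trimming and a length filter (Fastx-ToolKit) and alignment to ce10 (Bowtie2) were run by the authors. The deposited values are raw read counts for 697 rows per library, 447 mature strands and 250 hairpins. How multiply mapped reads were counted, and whether strand was used, is not given in the sources used here, and overlapping rows on opposite strands hold equal counts. Of the hairpins, 241 lie at their WBcel235 coordinates (Ensembl annotation), which are those printed.

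For each of 434 mature names the row with most reads was kept, and counts were scaled to the total of mature miRNA reads, not to all reads as in the study. Intervals are Clopper-Pearson intervals of the share of the pair's reads. The 12 highest and 12 lowest miRNAs with 50 reads or more over both libraries, the 5 most abundant of ctrl and any miRNA absent from 1 library with at least 10 reads in the other (none was found) were named, beside families taken by hairpin name. Members and lists were chosen with earlier results of these data known. Intervals were tested on simulated data. Alternative scalings used edgeR 4.0.16 (TMM) and DESeq2 1.42.0 (median of ratios) in R 4.3.3. Other work used Python 3.11.15, scipy 1.17.1, numpy 2.4.6, pandas 2.3.3 and matplotlib 3.10.9.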

Additional observations from a re-analysis of the deposited data

Results flagged for a closer look

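Reads on hairpins outside both mature strands, taken as hairpin reads less those of the mature strands, belong to none of the comparisons. As a net sum over all hairpins they came to 49 in ctrl and 64 in WT. Such a difference can be negative, as at mir-63 with -3 in ALG-1/OE and -4 in *glp-1(e2144)*, so it is not an exact count. At mir-354 there were 9 such reads in ctrl and 8 in WT, of 19 hairpin reads in ctrl. At mir-61 there were 5 in ctrl and 0 in WT.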

How the results depend on the processing

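No paired analysis was possible because each condition has 1 library, and for the same reason no replicate could be left out. The median log2 fold change of 0.037 stayed between -0.062 and 0.12 under the alternatives that give one. The log2 scaling, which is subtracted from every value, moved by 0.077 with a total that leaves out mir-35 to mir-42, by -0.083 without miR-82-3p, by -0.065 with TMM factors and by 0.037 with the median of ratios. These gave between 18 and 21 miRNAs above and between 17 and 26 below the cut-off, where 21 and 22 were found. Larger moves came from the handling of low counts. A pseudocount of 0.5 reads gave 37 above and 51 below, at least 10 reads in the higher library gave 12 above, and at least 10 reads in both gave 7 above and 6 below. Hairpin rows gave 12 below. A cut-off of 1.5-fold gave 45 above and 51 below, an interval wholly past 0 gave 41 and 42, and an interval wholly past the cut-off gave 1 and 1. Of the 29 miRNAs named by rule, 28 had the same sign in all 5 settings of scaling and pseudocount, the exception being miR-80-3p, and 8 of the 13 past the cut-off stayed past it. Of 18 families, 17 had the same sign, the exception being that of mir-2, mir-43, mir-250 and mir-797. Depth limits what can be said of the 96 miRNAs with fewer than 50 reads in the pair.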
